A study of Homo sapiens with 8 samples.

Results

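RNA recovered with an antibody to ribosomal protein S6 (RPS6) from DU145 cells was compared with the total RNA of the same lysate, gene by gene. DU145 is an epithelial prostate cancer cell line. The RPS6 RIP library holds RNA recovered by RNA immunoprecipitation (RIP) with an RPS6 antibody, and the input library holds RNA of the lysate without immunoprecipitation. Both were made with a stranded total RNA kit, neither label gives a treatment or an allele, and there was 1 library on each side. The study sequenced such a pair in 4 cancer cell lines, 8 libraries in all, and the pairs of Hep3B (liver), HCT116 (colon) and SW1990 (pancreas) cells are used here only to see where DU145 cells differ. The titles place the liver pair in Hep3B cells, whereas the cell line field names Huh7. A gene was a member if the mean of its deposited estimated counts in both DU145 libraries was at least 10, which held for 18768 of the 57756 listed genes. Another 12294 genes were above 0 in either library but under this minimum, and 26694 were at 0 in both. TNIP3, with a mean of 10.011 counts, lay just inside the limit, and RP11-177B4.1, with 9.9894, just outside it. Of the members, 32 were listed at 0 before and 181 after immunoprecipitation.

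RPS6 is a protein of the small (40S) ribosomal subunit and a substrate of the S6 kinases at the end of the PI3K/AKT/mTOR cascade. An antibody to it can recover free small subunits, initiation complexes and translating ribosomes together with the mRNAs on them, and also the mRNA and nascent chain of RPS6 itself. Many mRNAs of the translation machinery start with a run of pyrimidines, the terminal oligopyrimidine (TOP) motif, through which the mTOR pathway regulates their entry into polysomes.

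The DU145 pair was checked against marker genes. The 10 markers fixed for the line, mostly epithelial, were all members. Their summed level was 1100 FPKM (fragments per kilobase of transcript, scaled by library) in the input and 3550 FPKM in the RIP library. KRT8, a keratin of simple epithelia, had 95.4 FPKM in the input and 415 FPKM in the RIP library, and EPCAM, an epithelial adhesion protein, had 67.0 and 52.7 FPKM. The list also holds VIM, a filament protein more typical of mesenchymal cells, with 336 FPKM in the input and 1100 FPKM in the RIP library. Markers of luminal prostate cells were mostly low. KLK2 and KLK3, the secreted kallikreins of the prostate, had 0 fragments in both libraries. A count of 0 fragments allows up to 0.0553 fragments per 1000000 of the input and 0.0816 per 1000000 of the RIP library, the floor of 3 fragments. Of the 14 luminal markers, 4 were members, and their summed level of 73.4 FPKM in the input came mostly from FOXA1, a forkhead transcription factor, with 51.8 FPKM. Markers of other tissues were low, with 2 of 14 liver, 1 of 12 colon, 3 of 14 pancreas and duct, and 2 of 10 immune and blood markers among the members. Their summed input levels were 17.3, 1.45, 77.5 and 8.96 FPKM, and those in the RIP library 41.5, 0.934, 109 and 7.89 FPKM. MUC1, a mucin of many epithelia, made up 76.6 FPKM of the pancreas and duct sum, and SERPINA1, a protease inhibitor, 15.8 FPKM of the liver sum.

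The input library held 54209627 fragments and the RIP library 36783382, while the other 6 libraries held between 34630376 and 45572100. Enrichment is given as the log2 ratio of (RIP count + 1) to (input count + 1), and a gene is called higher or lower at 2-fold, a log2 ratio of at least 1 or at most -1. With 1 library a side these calls have no replicate check and no p-value. Beside some ratios stands an exact 95% interval, which covers counting error only. The counts were deposited already scaled by 1 factor per library, and their totals differ, at 36466033 before and 46563501 after immunoprecipitation. Each ratio is thus relative to this scaling, and it can differ from the change in a gene's share of all fragments.

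The median log2 ratio over all members was 0.01, with quartiles of -1.07 and 1.04. The RIP library was at least 2-fold higher for 4850 members (25.8%) and at least 2-fold lower for 4982 (26.5%). In Hep3B, HCT116 and SW1990 cells the medians over the same members were also near 0, at -0.07, -0.01 and 0.0. The near-even split thus goes with the deposited scaling and does not measure how much RNA was recovered. The tails were uneven, since the 1st and 99th percentiles were -4.54 and 3.05. The abundant RNAs farthest below the input were small and noncoding, and those farthest above it were mRNAs. Among 13623 protein-coding members the median was 0.12, with 27.8% higher and 24.0% lower. The 637 long noncoding RNAs had a median of -0.59, with 85 higher and 246 lower, and the 689 pseudogenes a median of -0.19. The medians were -1.78 for 13 snoRNAs and -2.83 for 16 snRNAs. Protein-coding genes took up 86.5% of the fragments of the input and 96.7% of those of the RIP library.

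**Figure D1:**
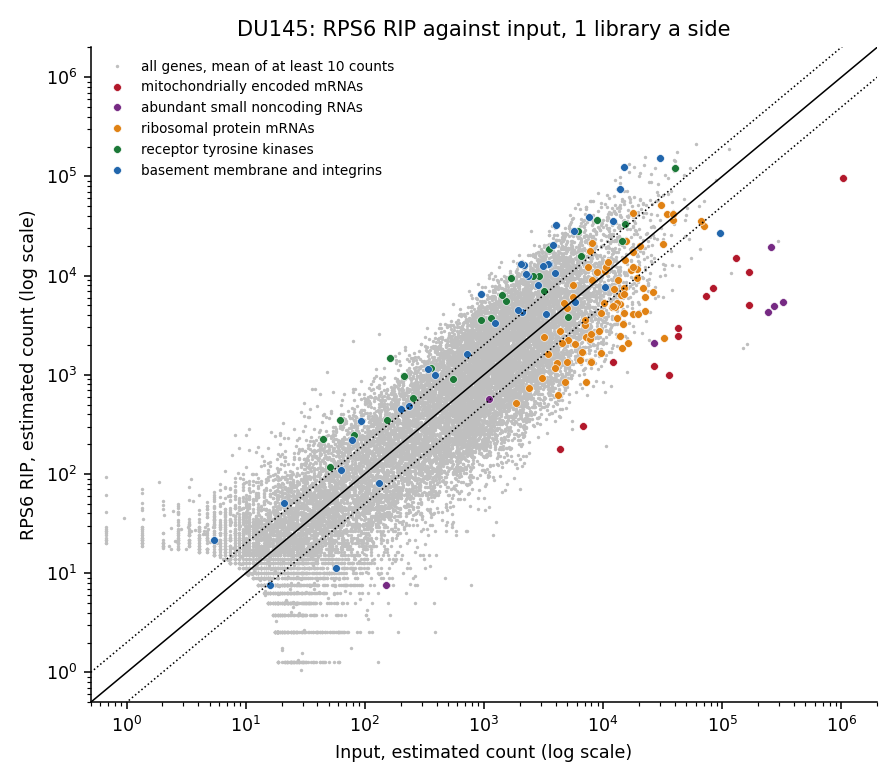
Estimated counts of DU145 genes in the RPS6 RIP library (vertical, log scale) against the input library (horizontal, log scale), 1 point per member and 1 library a side, with lines at equal counts and at 2-fold. Of the members, 18555 are drawn and 213 with under 0.5 counts in a library are not; ribosomal protein mRNAs and mitochondrially encoded mRNAs lie mostly below the line of equal counts, and receptor tyrosine kinases above it.

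Abundant small noncoding RNAs that work outside the translating ribosome or only touch it had the lowest median ratio of the gene lists. Of 20 such RNAs listed, 7 were members, of which 6 were at least 2-fold lower (85.7%, against 26.5% of all members) and 0 higher. Their median log2 ratio was -4.15 against 0.01 over all members. RN7SL1, the 7SL RNA of the signal recognition particle, was the most abundant member, with 76831 FPKM in the input and 1275 FPKM in the RIP library, a log2 ratio of -5.90 (interval -5.94 to -5.86). All 848 entries with 7SL names together held 2.54% of the input fragments (95% Wilson interval 2.54% to 2.55%) and 0.0324% of the RIP fragments (0.0319% to 0.0330%). The single 7SL copies, such as RN7SL2 at -5.77 and RN7SL4P and RN7SL5P at -6.32, are near-identical, so the split of fragments between them is uncertain. RPPH1, the RNA of ribonuclease P that trims tRNA precursors, went from 40852 FPKM in the input to 696 FPKM in the RIP library, a log2 ratio of -5.83. RN7SK, a nuclear RNA that holds back transcription elongation, had 47394 and 3421 FPKM and a log2 ratio of -3.72. RMRP, which cuts precursor rRNA in the nucleolus, had 9918 and 742 FPKM, a log2 ratio of -3.66. Its ratio differed widely between the lines, from -6.21 in Hep3B to 0.59 in SW1990 cells. SCARNA7, a guide RNA of Cajal bodies, had 564 input and 4 RIP fragments, a log2 ratio of -5.97. TERC, the RNA template of telomerase, stood out as the one member of this list inside the 2-fold limit, with 140 and 63.0 FPKM and a log2 ratio of -0.96.

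Nuclear long noncoding RNAs were lower as well. Of 16 listed, 13 were members, and 9 of them were lower (69.2%) and 0 higher, with a median log2 ratio of -1.56. Over all members the shares were 26.5% lower and 25.8% higher. MALAT1, which resides in nuclear speckles, had 1215 FPKM in the input and 141 FPKM in the RIP library, a log2 ratio of -3.74. NEAT1, the scaffold of paraspeckles, had 161 and 11.2 FPKM and a log2 ratio of -2.55. KCNQ1OT1, an imprinted antisense RNA with 98 and 54 fragments, was close to even at 0.05. The host genes of snoRNAs without a protein product, whose spliced RNA leaves the nucleus, were similarly placed, with 13 of 18 members lower, 0 higher and a median of -2.0, and the same 13 genes were lower in each of the other lines. SNHG3 had the lowest ratio, with 212 FPKM in the input and 37.6 FPKM in the RIP library (-3.90). Its ratio in FPKM, on the log2(FPKM + 1) scale, was less far from 0 at -2.46, and that of NEAT1 farther at -3.73. GAS5 had 308 and 80.4 FPKM (-1.96). SNHG17 was even, with a log2 ratio of 0.04.

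The snoRNA SNORA73B, which the study followed, had 36 input and 5 RIP fragments of DU145 cells, and its log2 ratio of -1.78 had an interval from -3.64 to -0.58. It shares its locus in the files with SNHG3 and with RCC1, a chromatin-bound exchange factor of the GTPase RAN, whose log2 ratio was 0.44. The snoRNA SNORA23 was under the minimum of 10 counts and is no member. Its host IPO7, a nuclear import receptor, had 50.4 FPKM in the input and 51.2 FPKM in the RIP library, a log2 ratio of -0.34.

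RNAs made inside mitochondria, which are translated there by mitochondrial ribosomes, were depleted throughout. All 13 mitochondrially encoded mRNAs were lower in the RIP library, with log2 ratios from -5.17 to -3.12 and a median of -3.95, and all 13 were lower in the other lines too. They made up 5.0% of all input fragments and 0.324% of those after RIP. MT-CO1, a subunit of cytochrome c oxidase, had 21186 FPKM in the input and 1733 FPKM in the RIP library (-3.40). MT-CO2, another subunit, had 1788 and 42.8 FPKM (-5.17), and MT-ND4, of complex I, had 2933 and 269 FPKM (-3.12). The mitochondrial rRNAs, both of them members, had lower levels than the mRNAs in both libraries. MT-RNR1, of the small subunit, had 25.9 and 4.35 FPKM, and MT-RNR2, of the large subunit, 11.2 and 0.428 FPKM. Their log2 ratios in DU145 cells were -2.47 and -4.67. In Hep3B and HCT116 cells both lay between -0.29 and 0.72, and in SW1990 cells they were -0.34 and -4.12. Neither passed the test of DU145 against the other lines (edgeR's quasi-likelihood test, adjusted p = 1.0 for both).

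The mRNAs of the ribosomal proteins, among them that of RPS6, were mostly lower in the RIP library than in the input. The starts of 6 TOP mRNAs are shown, since the first bases of the transcript are what sets TOP mRNAs apart. Beside them stand 2 ribosomal protein genes whose annotated start misses the rule for a TOP start given below. Each run holds 10 bases before the annotated start and the first 20 bases of the transcript, from RefSeq on GRCh38.p14, and capitals mark the unbroken run of C and T from the start.

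RPLP1, chr15:69452808-69452837, plus strand: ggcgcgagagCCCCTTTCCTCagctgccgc
RPS12, chr6:132814559-132814588, plus strand: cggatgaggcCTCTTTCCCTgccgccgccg
RPL12, chr9:127451387-127451416, minus strand: cgatttccggCCTCTCggctttcggctcgg
RPS6, chr9:19380217-19380246, minus strand: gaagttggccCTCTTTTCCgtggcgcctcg
NPM1, chr5:171387839-171387868, plus strand: agcctgcgtcCTTTCCCTggtgtgattccg
EEF2, chr19:3985444-3985473, minus strand: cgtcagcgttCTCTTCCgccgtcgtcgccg
RPL3, chr22:39319604-39319633, minus strand: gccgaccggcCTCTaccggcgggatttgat
RPS15, chr19:1438386-1438415, plus strand: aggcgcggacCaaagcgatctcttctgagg

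All 79 ribosomal protein genes listed were members. Of the 32 of the small subunit, 17 were lower and 2 higher, with a median log2 ratio of -1.11, and of the 47 of the large subunit, 29 were lower and 1 higher, with a median of -1.17. Together 58.2% were lower, against 26.5% of all members, and they took up 3.06% of all input fragments and 1.55% of those after RIP. RPS6 itself had 461 FPKM in the input and 205 FPKM in the RIP library, a log2 ratio of -1.53 (interval -1.57 to -1.49). RPLP1, an acidic protein of the ribosomal stalk, was the lowest, with 1240 and 100 FPKM (-3.81). RPL22 had 125 and 19.5 FPKM (-3.08), RPS12 997 and 134 FPKM (-2.94), and RPL12, at the base of the stalk, 898 and 178 FPKM (-2.35). The most abundant members of each subunit were less depleted, RPS2 with 2353 and 1222 FPKM (-0.91) and RPLP0 with 1790 and 1037 FPKM (-1.16). Of the 3 genes above the 2-fold limit, 2 were RPS15 with 474 and 1116 FPKM (1.41) and RPL3 with 380 and 958 FPKM (1.23). Within this pair of libraries the mRNAs of 1 protein complex thus ranged from -3.81 to 1.41.

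A start of C followed by at least 4 further pyrimidines (C or T), read on the transcribed strand only, was searched for in the annotated promoters. It was present at 4.04% of all 27305 RefSeq starts, at 5.28% of the 11143 protein-coding members with a promoter, and at 43 of 63 ribosomal protein genes (68.3%). The 43 ribosomal protein genes with this start had a median log2 ratio of -1.51, with 28 lower and 0 higher. The 20 without it had a median of -0.65, with 8 lower and 2 higher, RPS15 and RPL3 being the 2. Outside the ribosomal proteins, the start went with a small shift of the median. Among other protein-coding members within the same range of transcript length, the 99 with a TOP start had a median of -0.56 and the 1470 without it -0.32. The shares lower were 40.4% and 34.8%, and those higher 16.2% and 16.0%. In the same order, the medians were -0.215 and -0.201 in Hep3B, -0.926 and -0.549 in HCT116, and -0.877 and -0.576 in SW1990 cells. A match says only that these letters stand at the annotated start, and start sites in DU145 cells were not measured. A miss, as for RPL3 with a run of 4 pyrimidines, does not show that the motif is absent.

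**Figure D2:**
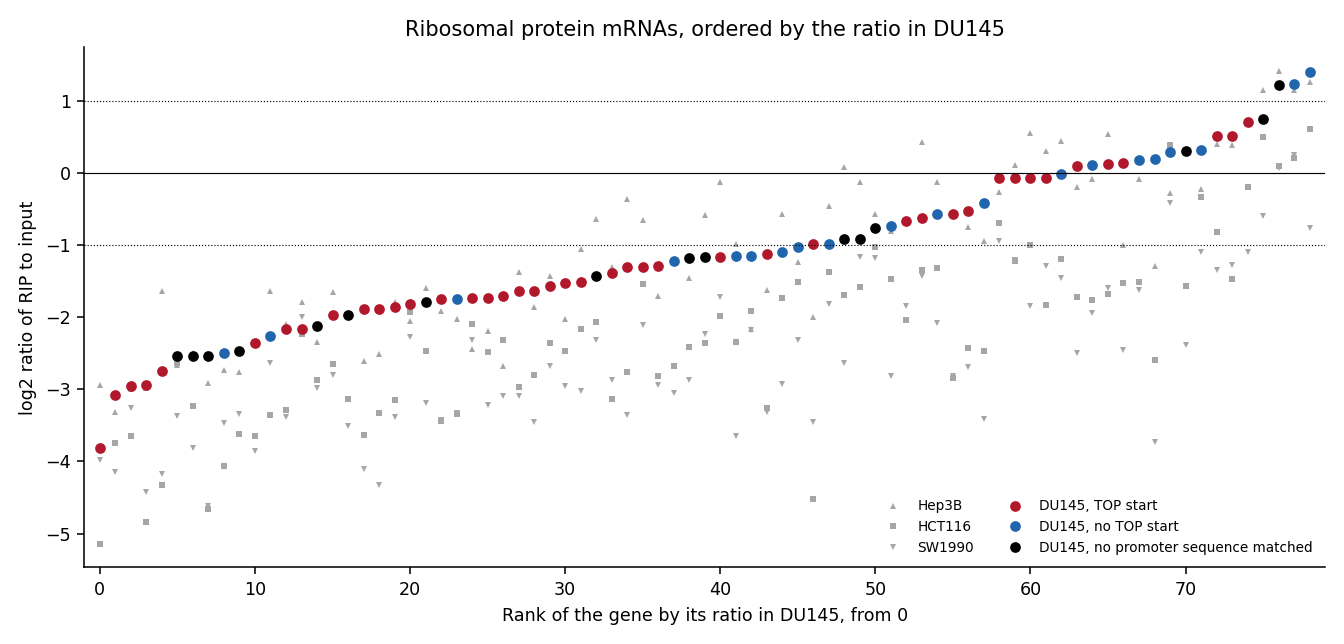
The log2 ratio of RIP to input (vertical) for each ribosomal protein mRNA, placed by the rank of its ratio in DU145 cells (horizontal), with DU145 and each of the other 3 lines as separate points from 1 pair of libraries each. RPLP1 is the lowest in DU145 cells at -3.81 and RPS15 the highest at 1.41, and DU145 is the highest of the 4 lines for 41 of the 79 genes and the lowest for 0.

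In DU145 cells these mRNAs were less depleted than in HCT116 and SW1990 cells, where the medians over the 79 genes were -2.34 and -2.80, and stood close to Hep3B cells at -1.20. DU145 had the highest ratio of the 4 lines for 41 of the 79 (51.9%), against 19.8% of all members, and the lowest for 0. Still 39 of the 79 were lower in each of the 4 lines, against 2289 of all 18768 members. RPS6 followed this order, with log2 ratios of -1.53 in DU145, -2.03 in Hep3B, -2.47 in HCT116 and -2.95 in SW1990 cells. Its ratio in DU145 cells exceeded that of the other lines by 0.97 on the log2 scale (standard error 0.66, edgeR's quasi-likelihood test, adjusted p = 1.0), so the difference did not pass the test.

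Other TOP mRNAs were mixed. Of 16, 6 were lower and 4 higher, with a median log2 ratio of -0.12. NPM1, a nucleolar chaperone, had 892 FPKM in the input and 405 FPKM in the RIP library (-1.84), EIF3E, a subunit of initiation factor eIF3, 260 and 104 FPKM (-1.82), and TPT1 674 and 279 FPKM (-1.49). The elongation factor EEF2, which moves the ribosome along the mRNA and whose mRNA starts with a TOP motif as shown above, went the other way, with 499 and 1707 FPKM and a log2 ratio of 1.85. EEF1A1, which delivers tRNAs to the ribosome, was even, with 1247 and 1284 FPKM (0.07).

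The factors that start translation showed no common direction. Of 30 initiation factor mRNAs, 6 were higher and 8 lower, near the shares of all members, with a median log2 ratio of 0.06. Among them EIF4G1, the scaffold of the cap-binding complex, had 126 FPKM in the input and 696 FPKM in the RIP library (2.16), whereas EIF4E, the cap-binding protein, had 70.2 and 26.0 FPKM (-1.83). EIF1AX, which helps to select the start codon, had the lowest ratio of the list, with 28.6 and 8.37 FPKM (-2.11).

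The mTOR pathway, which acts on RPS6 through the S6 kinases, had 11 of 28 mRNAs higher (39.3%) and 5 lower (17.9%). Among all protein-coding members the shares were 27.8% and 24.0%. The median log2 ratio of the list was 0.65, against 0.12 over these members. The kinase and a part of its regulators had high ratios. MTOR, the kinase, had 14.9 FPKM in the input and 74.5 FPKM in the RIP library (2.24), RPTOR, the subunit that recruits its substrates, 13.3 and 85.2 FPKM (2.71), and TSC2, its inhibitor upstream, 18.2 and 66.7 FPKM (2.34). RHEB, the small GTPase that activates the complex, had 212 and 58.0 FPKM (-2.05). EIF4EBP2, a repressor of EIF4E that the pathway switches off, was the lowest, with 67.3 and 11.9 FPKM (-2.75). The mRNAs of both S6 kinases fell on opposite sides. RPS6KB1 had 33.0 and 15.1 FPKM (-1.42) and RPS6KB2 had 38.7 and 90 FPKM (1.36). AKT1, the kinase upstream of the pathway, had 68.2 and 112 FPKM (0.64), and EIF4EBP1 62.0 and 54.6 FPKM (-0.14).

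Ribosome biogenesis factors were balanced, with 8 of 30 higher (26.7%), 8 lower (26.7%) and a median log2 ratio of -0.26. These shares were near the 27.8% and 24.0% of all protein-coding members. RRP12, which takes part in the export of both subunits, had 8.30 FPKM in the input and 49.8 FPKM in the RIP library (2.60). NOP10, a small protein of the H/ACA snoRNPs, had 140 and 22.1 FPKM (-2.63). NCL, the nucleolar protein nucleolin, had 196 and 90.5 FPKM (-1.52), and FBL, the methyltransferase of C/D snoRNPs, 140 and 162 FPKM (0.04).

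Among the gene lists, receptor tyrosine kinases and basement membrane and integrin genes had the largest shares of members higher in the RIP library. Their proteins are made on the endoplasmic reticulum (ER). Of 27 receptor tyrosine kinases, 24 were higher (88.9%) and 0 lower, with a median log2 ratio of 1.79. Beside them, 27.8% of all protein-coding members were higher and 24.0% lower. The receptor tyrosine kinases held 0.322% of all input fragments and 0.734% of those after RIP. ERBB2 had 25.8 FPKM in the input and 147 FPKM in the RIP library (2.39), AXL, the most abundant of the family by counts, 225 and 665 FPKM (1.59), and EGFR 39.2 and 101 FPKM (1.11). ROR2, a receptor of WNT5A, had 0 input and 34 RIP fragments, at least 21.3-fold higher against a floor of 3 fragments in the input. RYK, another WNT receptor, had the lowest ratio of the family, with 70.4 and 75.5 FPKM (-0.41).

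Of 38 members among 40 basement membrane and integrin genes, 30 were higher (78.9%) and 2 lower (5.26%), with a median log2 ratio of 1.53. LAMA5, a laminin chain, had 63.3 FPKM in the input and 443 FPKM in the RIP library (3.04), and HSPG2, the proteoglycan perlecan, 9.08 and 78.0 FPKM (2.98). ITGA3, an integrin that binds laminins, had 202 and 1149 FPKM (2.34). The 2 lower genes were SPARC, a matrix glycoprotein with 86 and 9 fragments (-2.25), and ITGB1, the common beta chain of the laminin and collagen receptors, with 730 and 277 FPKM (-1.83). ITGB1 was lower in every line, between -2.01 and -1.66 in the others. SPARC was between 0.72 and 1.32 in the other lines, a difference that did not pass the test (edgeR, adjusted p = 1.0).

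Genes of cell junctions and of amino acid transport leaned the same way more weakly, beside 27.8% higher and 24.0% lower among all protein-coding members. Of 22 members among 24 cadherin and junction genes, 8 were higher and 0 lower, with a median log2 ratio of 0.72, from PKP3, a desmosomal plakophilin (25 and 117 FPKM, 2.29), to DSC2, a desmosomal cadherin (16.9 and 11.3 FPKM, -0.86). CDH1, the E-cadherin of epithelial junctions, had 32.7 and 76.4 FPKM (0.74). Of 16 members among 17 amino acid transporters, 7 were higher and 2 lower, with a median of 0.52. SLC43A1 had the highest count ratio of them (43 and 92 fragments, 1.97; 0.37 on the log2(FPKM + 1) scale), SLC7A5, the light chain of the leucine transporter, had 122 and 259 FPKM (1.17), and SLC36A4 the lowest (50.9 and 20.6 FPKM, -1.82).

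The genes of the ER machinery itself did not share that direction, beside 27.8% higher and 24.0% lower among all protein-coding members. Of 29 translocon and signal recognition particle genes, 3 were higher (10.3%) and 16 lower (55.2%), with a median log2 ratio of -1.09. SEC11C, a small subunit of signal peptidase, had 28.8 FPKM in the input and 2.54 FPKM in the RIP library (-3.52), and SRP9, a protein of the signal recognition particle, 247 and 50.9 FPKM (-2.59). RPN2, a subunit of the oligosaccharyltransferase, was the highest, with 162 and 375 FPKM (1.24). Of 21 ER chaperones, 4 were higher (19.0%) and 6 lower (28.6%), with a median of -0.15. They ran from P4HB, a protein disulfide isomerase (631 and 1325 FPKM, 1.52), to DNAJB9, a co-chaperone of HSPA5 (10.0 and 3.72 FPKM, -1.77). Of 22 cytosolic chaperones, 6 were higher (27.3%) and 3 lower (13.6%), with a median of 0.05. HSPA1B, an inducible HSP70, had 19.8 and 72.9 FPKM (1.98), HSPA8, the constitutive one, 653 and 872 FPKM (0.32), and DNAJA1 44.7 and 20 FPKM (-1.62).

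**Figure D3:**
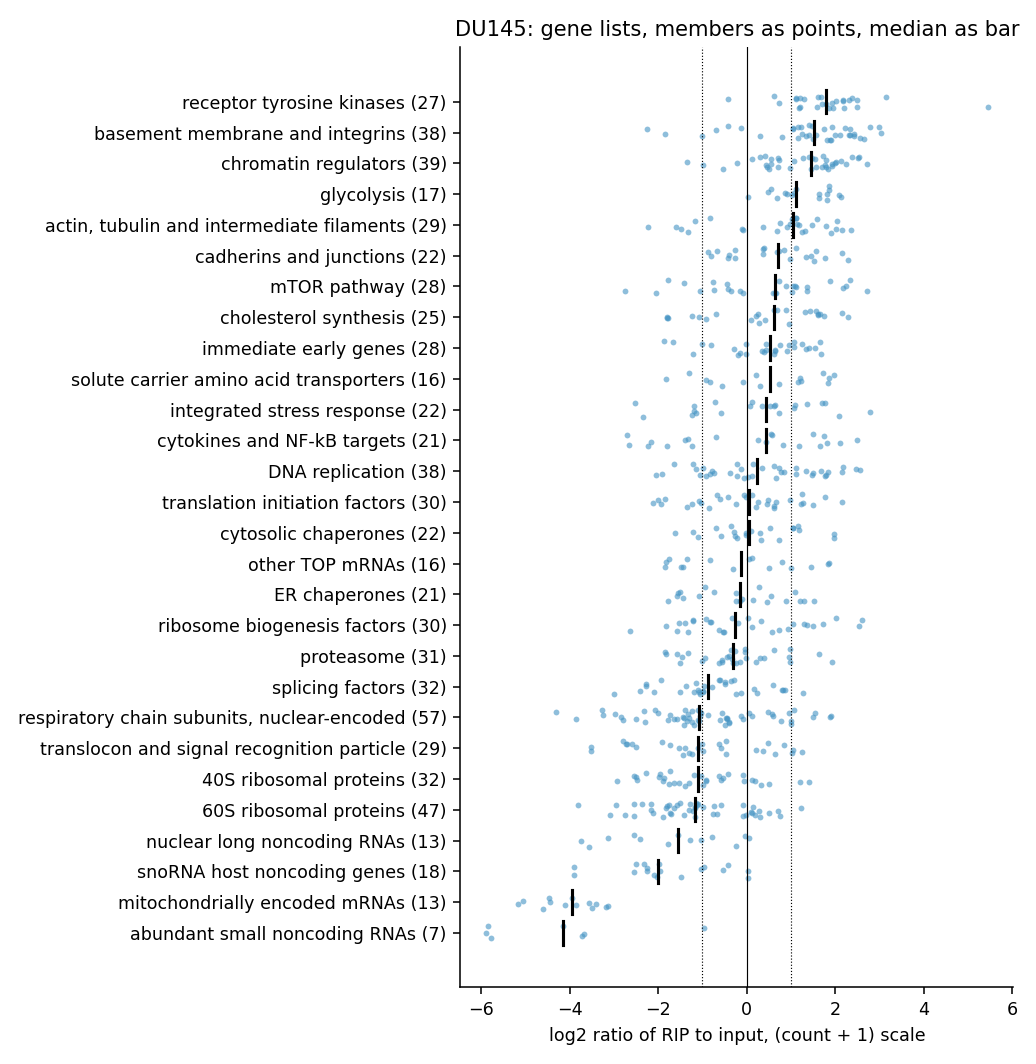
The log2 ratio of RIP to input on the (count + 1) scale (horizontal) for the members of each gene list in DU145 cells, 1 point per gene with the median as a bar and the number of members in brackets. Receptor tyrosine kinases and basement membrane genes lie highest, with medians of 1.79 and 1.53, and small noncoding RNAs and mitochondrially encoded mRNAs lowest, with medians of -4.15 and -3.95.

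In energy metabolism, glycolysis and the respiratory chain parted, beside 27.8% higher and 24.0% lower among all protein-coding members. Of 17 glycolysis genes, 11 were higher (64.7%) and 0 lower, with a median log2 ratio of 1.11. PKM, the pyruvate kinase, had 581 FPKM in the input and 2128 FPKM in the RIP library (1.82), GAPDH 918 and 2072 FPKM (1.11), and PFKL, the liver form of phosphofructokinase, 15.3 and 65.3 FPKM (2.13). LDHB, a lactate dehydrogenase subunit, was the lowest, with 248 and 302 FPKM (0.02). Its ratio was -3.61 in Hep3B cells. Of 57 nuclear-encoded respiratory chain genes, 7 were higher (12.3%) and 32 lower (56.1%), with a median of -1.07. NDUFB1 and NDUFA5, small subunits of complex I, had 142 and 5.54 FPKM (-4.30) and 65.7 and 6.46 FPKM (-3.86). Among the 7 higher were ATP5B, the catalytic subunit of ATP synthase (352 and 1152 FPKM, 1.5), UQCRC1, a core protein of complex III (67.8 and 236 FPKM, 1.91), and SDHA, of complex II (68.6 and 219 FPKM, 1.54). Of 25 cholesterol synthesis genes, 9 were higher and 5 lower, with a median of 0.63. SREBF1, a transcription factor of lipid synthesis, had 36.8 and 188 FPKM (2.30), and SC5D, a desaturase, 41.1 and 14.7 FPKM (-1.81).

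Of 39 chromatin regulators, 23 were higher (59.0%) and 1 lower (2.56%), with a median log2 ratio of 1.45. The shares among all protein-coding members were 27.8% and 24.0%. The methyltransferases KMT2B and KMT2D had 9.09 FPKM in the input and 54.4 FPKM in the RIP library (2.72) and 20.4 and 83.5 FPKM (2.03), and DNMT1, which maintains DNA methylation, had 44.7 and 129 FPKM (1.83). EED, a small subunit of the polycomb complex PRC2, was the one lower gene, with 12.5 and 7.03 FPKM (-1.34). Of 38 DNA replication genes, 13 were higher (34.2%) and 6 lower (15.8%), with a median of 0.24. Highest was POLD1, the catalytic subunit of a replicative polymerase (21.5 and 89.7 FPKM, 2.57). POLE, that of another (24.6 and 101 FPKM), was at 2.48, and MCM2, a subunit of the helicase (14.1 and 67.6 FPKM), at 2.15. GINS1, a small subunit of the same helicase, was the lowest (17.5 and 5.64 FPKM, -2.04). Splicing factors were lower, with 13 of 32 lower (40.6%) and 1 higher (3.12%), a median of -0.88. SRSF5 had 111 and 13.6 FPKM (-3.00), HNRNPL, the one higher gene, 154 and 368 FPKM (1.28), and SRRM2, of the nuclear speckles, 59.9 and 99 FPKM (0.80).

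Cytoskeletal genes leaned towards the RIP library, with 16 of 29 higher (55.2%), 5 lower (17.2%) and a median log2 ratio of 1.06. Among all protein-coding members 27.8% were higher and 24.0% lower. LMNA, the nuclear lamin, had 225 FPKM in the input and 747 FPKM in the RIP library (2.36), and KRT8, the epithelial keratin, 95.4 and 415 FPKM (2.16). ACTB, the abundant actin, had 1702 and 2658 FPKM (0.74), and TPM1, a tropomyosin, 35.1 and 8.56 FPKM (-2.22). The 31 proteasome genes stood near the middle, with 2 higher (6.45%), 7 lower (22.6%) and a median of -0.30. PSMD2, a large subunit of the regulatory particle, had 185 and 822 FPKM (1.94), and PSMA3, a subunit of the core, 138 and 47.9 FPKM (-1.84).

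Genes that respond to signals and stress were mixed, beside 27.8% higher and 24.0% lower among all protein-coding members. Of 28 members among 30 immediate early genes, 8 were higher (28.6%) and 4 lower (14.3%), with a median log2 ratio of 0.54. JUNB and MYC, both transcription factors, had 10.2 FPKM in the input and 25.8 FPKM in the RIP library (1.68) and 32.6 and 71.0 FPKM (1.41), CYR61, a matrix protein, 138 and 241 FPKM (0.65), and BTG2, an antiproliferative protein, 4.33 and 1.40 FPKM (-1.87). Of 22 integrated stress response genes, 7 were higher (31.8%) and 6 lower (27.3%), with a median of 0.44. ATF4, the transcription factor at the centre of that response, whose upstream reading frames hold back its translation in unstressed cells, had 229 and 106 FPKM (-1.23). Its partner CEBPG had 39.1 and 8.49 FPKM (-2.52), and SESN2, an inhibitor of mTORC1, 2.08 and 14.2 FPKM (2.78). Of 21 members among 28 cytokine and NF-kB genes, 7 were higher (33.3%) and 8 lower (38.1%), with a median of 0.43. They ran from NFKB2, a subunit of NF-kB (12.1 and 58.0 FPKM, 2.49), to CCL20, a chemokine with 57 and 4 fragments (-2.70). PLAU, the urokinase and the member with the most counts, had 200 and 332 FPKM (0.56).

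Members with a mean of at least 100 counts and a symbol matched exactly in RefSeq were ranked by ratio, and genes listed under clone names, some with more extreme ratios, were left out of this ranking. At a locus that several listed genes share, as 12969 of the 18768 members do, the split of fragments is uncertain. CHTF8, a replication factor gene at a locus of 18 listed genes, had 0 input and 361 RIP fragments, at least 226-fold higher. HSPE1-MOB4, TM9SF1 and ISY1-RAB43, at loci of 5, 12 and 4 listed genes, had 420, 391 and 373 input and 0 RIP fragments, at least 74.4-fold, 69.3-fold and 66.1-fold lower. HSPE1-MOB4 and ISY1-RAB43 are read-through genes. In Hep3B, HCT116 and SW1990 cells the ratios were 1.47, -2.476 and 4.335 for CHTF8 and 0.0, 5.67 and -1.746 for TM9SF1. They were 5.757, 6.497 and -8.085 for ISY1-RAB43, so these 3 entries changed direction between lines. HSPE1-MOB4 was lower in each, between -2.63 and -2.08. The part of the split of fragments in these bounds was not tested. The other 9 of the 10 highest in this ranking were LINC00273 (4.77), MIR663A (4.75), IGF2 (4.61), ANKRD30BL (4.48), CDHR2 (4.21), PLA2G4B (4.01), ABO (3.92), CHKB-CPT1B (3.91) and RIMBP3C (3.82). Each of these 9 has at least 1 further gene at its locus, and IGF2, a growth factor, and LINC00273 had 16 and 12 fragments in the input. Among the lowest, SSTR5-AS1, an antisense gene, had 573 and 2 fragments (-6.77), and the rest were RN7SL396P, a 7SL pseudogene (-6.51), and 5 small noncoding RNAs already described.

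MIR663A had 119 input and 1726 RIP fragments. A second miRNA entry, MIR3648, whose symbol had no exact match and which was chosen after its values were seen, lies alone at its locus. It had 59.8 and 1177 FPKM and a log2 ratio of 4.46 (interval 4.14 to 4.86). Both were high in every line, between 3.02 and 4.24 for MIR663A and between 1.93 and 4.27 for MIR3648 in the other 3. The mature miRNAs of both loci, from RefSeq on GRCh38.p14, are shown with the seed, bases 2 to 8, in capitals, because both are rich in G and C and have different seeds. The counted entries are genomic loci in libraries of long RNA, so their fragments need not be mature miRNAs.

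hsa-miR-663a, chr20:26208243-26208264, minus strand: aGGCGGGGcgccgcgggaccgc
hsa-miR-3648, chr21:8987026-8987046, plus strand: aGCCGCGGggaucgccgaggg

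Over all 27 miRNA members, with MIR663A and MIR3648 included, 7 were higher and 8 lower, with a median of 0.04.

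A ranking restricted to protein-coding members alone at their locus with a mean of at least 1000 counts avoids shared loci, and it was added after the values were seen. Its highest genes were ATG2A, a lipid transfer protein of autophagy (3.31), HELZ2, a helicase and coactivator (3.21), SCARA3 (3.16), CAD, the enzyme that starts pyrimidine synthesis (3.11), TRIM28, a corepressor (3.08), INTS1 of the Integrator complex (3.03), HPS6 (3.03), FASN, the fatty acid synthase (3.02), USP19, a deubiquitinase (3.00), and CAMSAP3, which binds microtubule ends (2.94). ATG2A had 5.62 FPKM in the input and 48.7 FPKM in the RIP library, and FASN 83 and 536 FPKM. Among the 10 lowest were C5orf51 (-3.94), NDUFA5 (-3.86), UBE2B, a ubiquitin-conjugating enzyme (-3.81), RPLP1 (-3.81), ARPP19, an inhibitor of the phosphatase PP2A (-3.44), SOCS4 (-3.39), GMFB (-3.33), VMA21, which assembles the proton pump of lysosomes (-3.33), and FCF1, of the small subunit processome (-3.29). C5orf51 had 78.5 and 5.83 FPKM, and ARPP19 183 and 21.0 FPKM. The widest interval of the 10 highest and 10 lowest ratios was that of UBE2B, from -4.11 to -3.55, and every one of the 20 lay on the same side in the other 3 lines.

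Transcript length and the base composition of the promoter went with the ratio. The length was taken from the files, as input count per FPKM relative to the median protein-coding member. From the shortest to the longest decile of the protein-coding members, the median log2 ratio went from -0.44 to 0.73. In the shortest decile, with a median relative length of 0.305, 15.7% were higher and 36.9% lower, and in the longest, with 3.00, 43.0% were higher and 11.1% lower. Over deciles of GC content in the 300 promoter bases, the median log2 ratio went from -0.25 at a median GC of 45.7% to 0.82 at 79.3%. Both trends held when the genes were split into quartiles of length and of GC content, with medians of -0.54 for 790 short genes of low GC, 0.19 for 534 short genes of high GC, 0.10 for 664 long genes of low GC and 0.77 for 867 long genes of high GC. The quartiles within each decile were wide, -0.31 and 1.6 in the decile of highest GC. The ribosomal proteins and the small subunits of complex I were among the short transcripts, and the receptor tyrosine kinases and chromatin regulators among the long ones, with median relative lengths of 1.75 and 2.58. The part of length or GC content in the ratios of these lists was not tested.

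The 100 bases before the annotated start are shown for the 2 highest and the 2 lowest genes of that ranking, to set the trend beside single genes. They are from GRCh38.p14, with each CG in capitals.

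ATG2A, chr11:64917210-64917309, minus strand: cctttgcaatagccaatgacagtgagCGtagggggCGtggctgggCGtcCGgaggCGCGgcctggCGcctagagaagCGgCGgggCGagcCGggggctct
HELZ2, chr20:63574240-63574339, minus strand: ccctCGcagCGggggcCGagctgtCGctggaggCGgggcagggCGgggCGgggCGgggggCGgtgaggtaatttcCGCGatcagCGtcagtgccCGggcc
C5orf51 (RIMOC1 in RefSeq), chr5:41904244-41904343, plus strand: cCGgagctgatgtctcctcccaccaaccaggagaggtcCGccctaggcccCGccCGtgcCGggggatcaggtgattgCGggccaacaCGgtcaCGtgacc
NDUFA5, chr7:123601652-123601751, minus strand: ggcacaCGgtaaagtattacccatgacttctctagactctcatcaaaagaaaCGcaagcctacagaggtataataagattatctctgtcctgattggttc

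ATG2A and HELZ2 had 71.0% and 78.0% GC with 11 and 13 CG in this stretch. NDUFA5 had 41.0% with 2, but C5orf51, the lowest gene of the ranking, had 69.0% with 8, so a GC-rich start is found on both sides. Over all 27305 promoters the median was 60% GC and 5 CG, and 83.7% held at least 1.

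**Figure D4:**
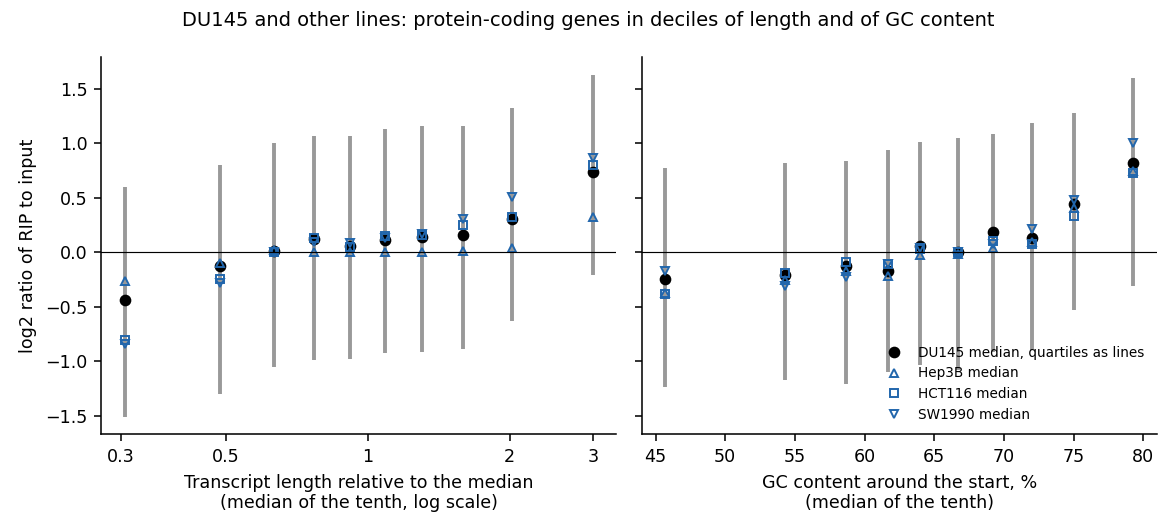
Median log2 ratio of RIP to input (vertical) over deciles of protein-coding members by relative transcript length (left, log scale) and by GC content of 300 promoter bases in percent (right), for DU145 with quartiles and for each of the other 3 lines, 1 pair of libraries each. In DU145 cells the median goes from -0.44 to 0.73 with length and from -0.25 to 0.82 with GC content.

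Most of the direction in DU145 cells was common to the other lines. Of the 4850 members higher in DU145 cells, 2325 (47.9%) were higher in each of the other 3, and 3666 (75.6%) had the same sign in each. Of the 4982 lower, 2289 (45.9%) were lower in each of the other 3, and 3962 (79.5%) had the same sign. Another 536 members were higher and 418 lower in DU145 cells with that call in none of the other lines. The reverse call in all 3 others was rare, with 27 of the members higher in DU145 cells and 6 of those lower. Among the lists, 21 of the 27 receptor tyrosine kinases, 19 of the 38 basement membrane and integrin genes and 15 of the 39 chromatin regulators were higher in each of the 4 lines. Over all 18768 members this held for 2325.

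The difference of the DU145 ratio from that of the other lines was tested with edgeR's quasi-likelihood test of the interaction, with the cell line as a block. With 1 pair in DU145 cells, the test assumes that this pair varies like the others, and it has 2 residual degrees of freedom for each gene. Of 19921 genes tested, 0 passed an adjusted p of 0.05 (0%), and 368 (1.85%) had an unadjusted p under 0.05, 272 of them among the 17874 members tested. DESeq2 called 3 genes higher and 4 lower in DU145 cells. No gene is therefore called particular to DU145 cells by the chosen test.

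MT2A, a metallothionein that binds zinc and copper, had the lowest adjusted p of the members. It had 145 FPKM in the DU145 input and 404 FPKM in the RIP library, a log2 ratio of 1.61 (interval 1.55 to 1.68) from 2835 and 4613 fragments. In Hep3B, HCT116 and SW1990 cells its log2 ratios were -1.61, -2.16 and -1.52, so it was called higher in DU145 cells and lower in each other line. The difference was 3.42 on the log2 scale (standard error 0.54, edgeR's quasi-likelihood test, adjusted p = 0.387), and DESeq2 called it. The gene lies alone at its locus on chromosome 16, from 56642110 to 56643409 on hg19.

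The list medians of DU145 cells stood within those of the other lines in part. DU145 had the highest median of the 4 lines for ribosomal proteins of the small subunit, other TOP mRNAs, mitochondrially encoded mRNAs, immediate early genes and the integrated stress response. It had the lowest for receptor tyrosine kinases, basement membrane genes, glycolysis, mitochondrial rRNAs, ER chaperones, the proteasome and DNA replication, apart from marker lists. Some of these gaps were small. Mitochondrially encoded mRNAs stood at -3.95 in DU145 and -4.01 in HCT116 cells. The integrated stress response stood at 0.438 in DU145 and 0.412 in SW1990 cells, and the proteasome at -0.297 and -0.291. For receptor tyrosine kinases the medians were 1.79 in DU145, 2.03 in Hep3B, 1.86 in HCT116 and 2.39 in SW1990 cells, and DU145 was the lowest of the 4 for 10 of 27 genes (37.0%), against 20.3% of all members. For glycolysis they were 1.11, 1.40, 1.79 and 1.47 in the same order. These orders come from 1 pair of libraries in each line, and no list was tested.

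**Figure D5:**
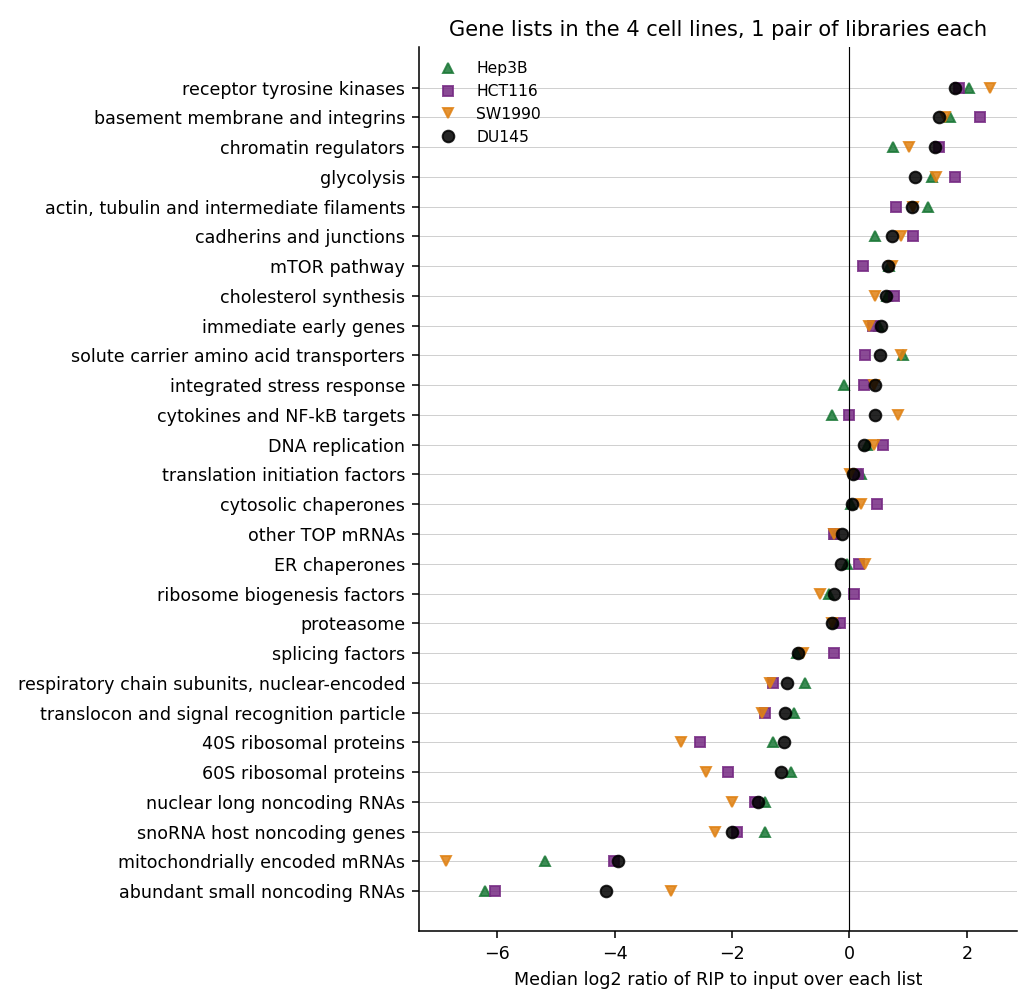
Median log2 ratio of RIP to input (horizontal) of each gene list in DU145, Hep3B, HCT116 and SW1990 cells, 1 point per line and 1 pair of libraries each. Mitochondrially encoded mRNAs lie lowest in SW1990 cells at -6.87 and highest in DU145 cells at -3.95, close to HCT116 cells at -4.01. Receptor tyrosine kinases lie between 1.79 and 2.39 in all 4 lines.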

How the data were processed

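RPS6 RIP and input RNA of DU145 cells were sequenced, 1 library each. The authors aligned reads to human genome version 19 (hg19) with TopHat2 2.0.9 after CASAVA 1.8, per the submitters' processing notes. The authors deposited FPKM, normalized for length and between libraries, and estimated counts, scaled by 1 factor per library and split between overlapping genes. The counting tool, annotation release and strand setting are not given in the sources used here, so a gene and its antisense partner may share reads. The deposited tables of fold changes, p-values and q-values were not used.

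Ratios were taken on counts with a pseudocount of 1, because 1 FPKM is worth more fragments in a long gene. Most counts are whole multiples of 1 value per library (0.673 in the input, 1.27 in the RIP library), and dividing by it gave whole fragments for 92.7% and 92.6% of the values above 0, within a tolerance of 0.02. Intervals are exact conditional binomial ones. Estimated counts were rounded for edgeR 4.0.16 (TMM, a minimum mean of 10 counts in 8 libraries, Benjamini-Hochberg adjustment), in R 4.3.3, tested on simulated data. Cell lines pair the libraries by design, and deviations of a RIP library correlated with those of its own input between 0.83 and 0.88 across genes. Alternatives used DESeq2 1.42.0, limma 3.58.1, other scalings, pseudocounts and minimums, no block, or left out a pair. Python 3.11.15 was used elsewhere.

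Members and gene lists were chosen with earlier results of these data known. Genes were named as the 10 highest and 10 lowest ratios at a mean of 100 counts or more with a RefSeq symbol, the 5 most abundant, the highest, lowest and most counted of each list, and genes of the study. Some members of the lists were also named for their role, with their values known. RefSeq (GRCh38.p14) matched 15384 members. Planned features of the proteins were not analysed here, and length and promoter GC were used in their place, after the values were seen. A few genes are not reported here. None of the 8 libraries is labelled as an IgG control, so RNA recovered without RPS6 cannot be told apart from RNA bound to it.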

Additional observations from a re-analysis of the deposited data

How the results depend on the processing

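With 1 library a side, no replicate of DU145 cells could be left out. The counts depend on the fold limit, the minimum count, the unit and the scaling. Scaling to total fragments was not tried for them. Against 4850 higher and 4982 lower members, a limit of 4-fold gave 1386 and 1906, no minimum count gave 7681 and 9483, and log2(FPKM + 1) gave 3658 and 2754. With log2(FPKM + 0.1) the counts were 4972 and 3961, after centring on protein-coding members, a shift of -0.12, they were 4312 and 5494, and after TMM scaling, a shift of -0.06, 4596 and 5220. FPKM ratios lay a median of 0.15 above count ratios, and 566 members (3.04%) differed by over 2-fold from that. Of 146 named genes, 9 fell inside the 2-fold limit with log2(FPKM + 1) and 2 moved past it, and none changed sign past the limit in any alternative. Of the list medians beyond 2-fold, those of the respiratory chain (-0.94 and -0.95) and the translocon (-0.94 and -0.96) fell inside it in FPKM with either pseudocount, that of the cytoskeleton (0.999) with log2(FPKM + 1), and those of glycolysis (0.99) and the cytoskeleton (0.94) after centring. In the test against the other lines, 0 genes were called in either direction in the chosen fit. DESeq2 called 3 higher and 4 lower, no minimum count gave 14 and 15, and leaving out a pair of another line gave between 0 and 8 higher and between 0 and 13 lower, with calls without the HCT116 or the SW1990 pair. Without the replicate block for the cell line, 0 genes were called higher and 0 lower, as with limma, without TMM, with recovered fragments and with a minimum of 50 counts. MT2A was called with DESeq2, with no minimum count, without the HCT116 pair and without the SW1990 pair. The cause of these changes was not tested. Depth limits genes with few fragments, such as SPARC, CCL20 and the snoRNAs.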

Other observations

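Gene families found in the files after the values were seen showed further one-sided ratios in DU145 cells. Of 62 histone cluster genes, whose replication-dependent mRNAs end in a stem-loop instead of a poly(A) tail, 31 were at least 2-fold higher in the RIP library and 1 lower, with a median log2 ratio of 1.0, against 25.8% and 26.5% of all members. The median was 0.50 in Hep3B, -0.77 in HCT116 and 0.82 in SW1990 cells, and DU145 had the highest ratio for 24 of the 62. These genes are short, with a median relative length of 0.132, and so lie against the trend by length. Zinc finger genes with ZNF names, transcription factors that are mostly repressors, leaned the other way, with 203 of 477 lower, 68 higher and a median of -0.73. Ribosomal protein pseudogenes, near-identical to their parent mRNAs, had 50 of 120 lower, 10 higher and a median of -0.62. Entries with 7SL names had 25 of 27 lower and a median of -4.76, and those with 7SK names 19 of 20 lower and a median of -3.26. The 64 read-through genes were balanced, with 13 higher and 15 lower.

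Beside MT2A, several genes had the opposite call in DU145 cells to that in all 3 other lines. A second entry of PIK3R2, a regulatory subunit of PI3-kinase, had 262 input and 9.48 RIP counts (-4.65), against 1.17 to 9.84 in the others. The first entry of PIK3R2 at the same locus had a ratio of 1.89, so the split of fragments between them is uncertain. CTA-85E5.10 had 175 and 51.9 counts (-1.73), and RP11-798G7.6 had 114 and 257 counts (1.16). FBN2, a fibrillin of the extracellular matrix, had 44 input and 2 RIP fragments (-3.12), and ratios between 1.39 and 3.39 in the other lines. LIPE, the hormone-sensitive lipase, had 32 and 4 fragments (-1.89), with 2.10 to 2.94 in the others. None of these genes passed the chosen test. CEBPA, a transcription factor, had 129 and 48 fragments (-0.52), against 1.81 to 2.58 in the others, and was called by DESeq2, as were FBN2 and LIPE.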
